A study of Mus musculus with 19 samples.

Results

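The comparison described here is that of KI-571 mice, which express an N-terminal fragment of mutant huntingtin (HTT), with wild type (WT) mice. Its members were taken from the labels of the count table and are 4 KI-571 and 7 WT mice, 11 of the 19 mice sequenced. In KI-571 mice, HD140Q knock-in mice had been edited with CRISPR/Cas9 in exon 13 of Htt, so that the mutant allele with its expanded CAG repeat ends in a truncated protein. The KI-571 mice are heterozygous and carry a WT Htt allele beside the mutant allele, and the line goes back to 1 founder, so that differences shared by the KI-571 mice cannot be told apart from those of that founder's descent. All 11 mice are on the C57/BL/6 background and were 6 months of age, and RNA was extracted from the dissected striatum. Sex and sacrifice batch are not in the labels.

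HTT is a large scaffold protein that serves vesicle transport, autophagy and transcription in neurons. An expanded polyglutamine tract near its N-terminus causes Huntington disease, and short N-terminal fragments with this tract misfold more readily than the whole protein. The striatum is the region most affected. Most of its neurons are GABAergic projection neurons of the direct pathway, which express the dopamine receptor Drd1, and of the indirect pathway, which express Drd2 and Penk. The striatum borders the lateral ventricle, which is lined by ependymal cells and holds the choroid plexus, an epithelium that makes cerebrospinal fluid, so that a dissected piece can carry RNA of both, and it also carries RNA of the blood in its vessels.

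Reads counted on genes numbered 16527306 to 22389330 in the KI-571 libraries and 17281603 to 26388542 in the WT libraries, of which replicates 5 to 7 were sequenced most deeply. Of the 54232 genes of the table, 17908 passed the filter on low counts and were tested. Levels are given as CPM, the share of a gene in the normalized library. A gene with 3 counts, taken as the floor, was at 0.108 to 0.180 CPM depending on the mouse, a limit that covers counting error only. WT replicate 1 was the only mouse of the 11 with a high level of Xist, 1072 CPM against 0.27 to 5.14 CPM in the others. Projection neuron markers were high in every mouse: the summed level of the 67 tested genes of the projection neuron lists was 24623 to 32500 CPM in KI-571 mice and 21646 to 32568 CPM in WT mice. The p-values measure the spread between these mice.

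Striatal projection neuron genes did not pass the test in KI-571 mice, whereas genes of the choroid plexus, genes of red blood cells and a set of single genes did. With edgeR's quasi-likelihood test, 55 genes, 0.307% of those tested, passed at a Benjamini-Hochberg adjusted p under 0.05 (called genes below). In KI-571 mice 39 of them (0.218%) were higher and 16 (0.0893%) lower. Of these, 10 belong to the choroid plexus list, 3 to the red blood cell list, 1 to the polyamine list and 1 to the list of genes of secreted liver proteins, 40 belong to none of the lists, and 0 to a neuronal list. In 41 of the 55 genes the 4 KI-571 mice did not overlap with the 7 WT mice, 26 higher and 15 lower, against 1.61% of all tested genes, 0.916% higher and 0.692% lower. The 55 genes were chosen by their p on these same mice, so that this share only describes them. When each mouse was left out in turn, 2 to 143 genes passed, the fewest without KI-571 replicate 2 and the most without KI-571 replicate 3, and DESeq2 called 335 genes, 2.03% of those to which it gave an adjusted p. Before adjustment, p was under 0.05 for 2186 genes (12.2%), 1082 of them higher (6.04%) and 1104 lower (6.16%).

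Htt, the targeted gene (ENSMUSG00000029104.15; chromosome 5 of GRCm38, 34761740 to 34912534, plus strand), fell. It was at 142, 125, 127 and 106 CPM in KI-571 replicates 1 to 4, and at 170 CPM in the lowest, 176 CPM in the median and 198 CPM in the highest WT mouse. All 4 KI-571 mice thus lay below all WT mice. The mean of the KI-571 group was 125 ± 15.01 CPM (SD, n = 4) and that of the WT group 180 ± 10.2 CPM (SD, n = 7). By edgeR the log2 fold change was -0.53, with a standard error of 0.087 and an adjusted p of 0.0282. Over all 330 splits of the mice, an exact permutation test (two-sided, on log2 CPM) gave p = 0.00303, the smallest value that 4 mice against 7 allow. The count is over the whole gene, mutant and WT allele together. The call was lost without KI-571 replicate 2, at an adjusted p of 0.125, and without WT replicate 4, 5, 6 or 7, at 0.0551 to 0.0704, while the log2 fold change stayed at -0.54 to -0.51 in these fits.

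**Figure D1:**
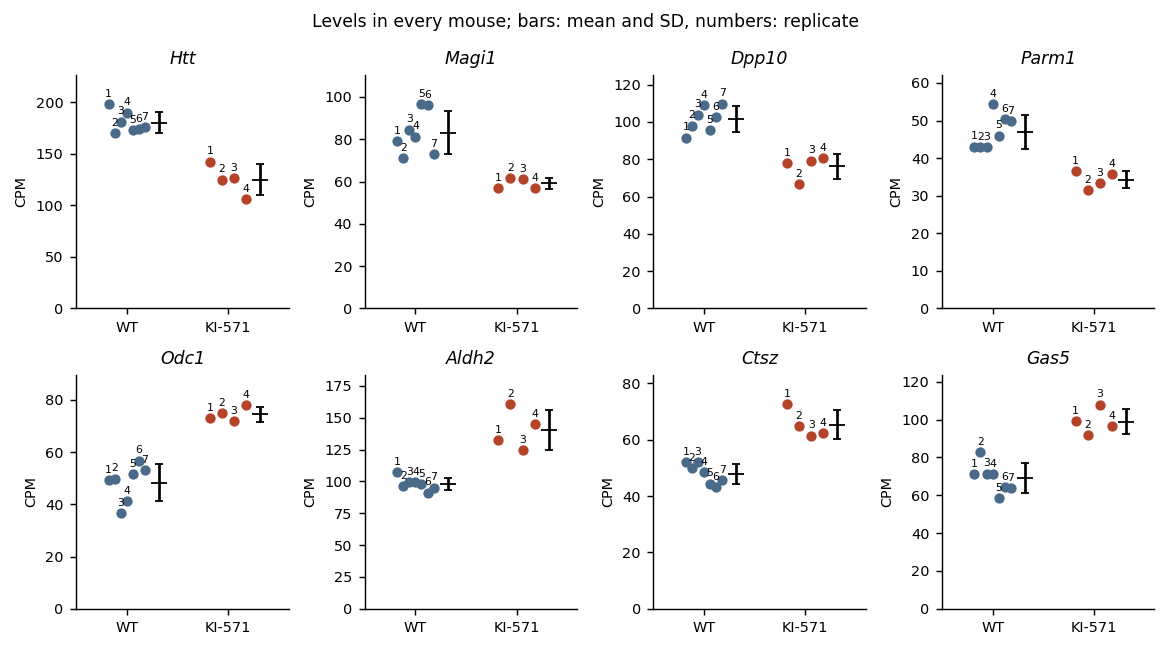
Levels of Htt and of 7 other genes that passed the test, in CPM on linear axes from 0. Each point is a mouse, with its replicate number, and bars give the mean and SD of the 7 WT and 4 KI-571 mice; in all 8 panels the points of the groups do not overlap, with Htt at 106 to 142 CPM in KI-571 and 170 to 198 CPM in WT mice.

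Among the neuronal lists, 0 of 212 tested genes passed the adjusted threshold by edgeR. Their median log2 fold change was -0.01, the same as over all tested genes (-0.01), and 15 of them, 5 higher and 10 lower, had an unadjusted p-value under 0.05 where 12.2% of all genes did. DESeq2 called 3 of the 212, and 2.03% of all genes. In bulk tissue, fewer cells of a type and less RNA per cell cannot be told apart.

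The direct pathway list had 3 genes higher and 7 lower, with a median of -0.06. Drd1, the dopamine receptor of these neurons, was at 270, 181, 217 and 222 CPM in KI-571 replicates 1 to 4 and at 199 to 317 CPM in WT mice (median 237). Its log2 fold change of -0.13 had a standard error of 0.13 and an adjusted p of 0.731, and the KI-571 values lay within or just under the WT range. Pdyn and Tac1, which encode the opioid and tachykinin precursors of the direct pathway, had log2 fold changes of -0.12 (adjusted p = 0.833) and 0.076 (adjusted p = 0.835).

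The indirect pathway list had 6 genes higher and 5 lower, with a median of 0.041. Drd2 was at 356, 273, 313 and 233 CPM in KI-571 mice and at 184 to 312 CPM in WT mice (median 238), so that replicates 1 and 3 lay just above the WT range and replicates 2 and 4 within it. Drd2 had a log2 fold change of 0.25 with a standard error of 0.15 and an adjusted p of 0.524, that of the adenosine receptor gene Adora2a 0.11 (adjusted p = 0.776) and that of Penk, the enkephalin precursor, -0.17 (adjusted p = 0.660). Cartpt, a neuropeptide precursor, had the smallest p of the list, with 0.777 to 3.19 CPM in KI-571 and 1.68 to 6.57 CPM in WT mice (log2 fold change -1.14, adjusted p = 0.226).

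Of the 46 genes shared by both kinds of projection neuron, 38 were higher and 8 lower, where 48.0% of all tested genes were higher, and the median was 0.087. These 46 genes share cells and libraries and are not independent. The unadjusted p-value was under 0.05 for 4 of them, all higher: Syndig1l, a synapse protein gene, with a log2 fold change of 0.46, Actn2 with 0.30, the calcium sensor Hpca with 0.39 and the retinoid receptor Rxrg with 0.39, with adjusted p-values of 0.319 to 0.382. Of all tested genes 6.04% had such a p in this direction. Ppp1r1b, which encodes the dopamine-regulated phosphatase inhibitor DARPP-32, was at 1575 to 2029 CPM in KI-571 and 1165 to 2260 CPM in WT mice (log2 fold change 0.13, adjusted p = 0.776). Pde10a, the phosphodiesterase of projection neurons, had a log2 fold change of -0.16 (adjusted p = 0.673). Against WT replicates 1 to 4 the median of the 46 genes was 0.050 in place of 0.087, and with KI-571 replicates 1 and 3 only it was 0.23. In that fit 12 of the 46 had an unadjusted p under 0.05 in the higher direction, where 6.84% of all genes did. Over the 67 genes of the projection neuron lists the median was 0.074, and it was -0.0211 without KI-571 replicate 1.

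No gene of the interneuron or synapse lists passed by edgeR. Of the 15 GABA interneuron genes 12 were lower, with a median of -0.36. The calcium-binding protein gene Calb2 had a log2 fold change of -1.19 (adjusted p = 0.193) and the GABA-synthesizing enzymes Gad1 and Gad2 had -0.33 and -0.36 (adjusted p = 0.392 and 0.403). Gad1 and Gad2 are not particular to interneurons, because the projection neurons are GABAergic too. Of the 9 cholinergic interneuron genes, the transcription factor Lhx8 had the smallest p (log2 fold change -0.55, adjusted p = 0.318). Of the 28 synapse genes 14 were higher and 14 lower.

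Immediate early genes, which follow neuronal activity, were lower in 19 of 24 cases with a median of -0.15, and 0 had an unadjusted p-value under 0.05. The smallest p belonged to Fosb (0.31, adjusted p = 0.678), in the opposite direction. With WT replicates 1 to 4 as controls, the median of this list was 0.085 in place of -0.15. Clustered protocadherin genes, which encode neuronal adhesion molecules, were higher in 25 and lower in 30 of 55 cases, with a median of -0.01. Cortical excitatory neuron genes had a median of -0.14 over 14 genes, which was 0.59 with DESeq2 and 0.11 with the red blood cell level as a covariate, so that no direction holds for this list. Their mean log2 CPM was 2.73, 4.62, 2.68 and 3.20 in KI-571 replicates 1 to 4 and 2.03 to 5.49 in WT mice, the highest being WT replicate 3 at 5.49. KI-571 replicate 2 thus had more cortical transcript than 6 of the 7 WT mice. The part of this in the other results was not tested.

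**Figure D2:**
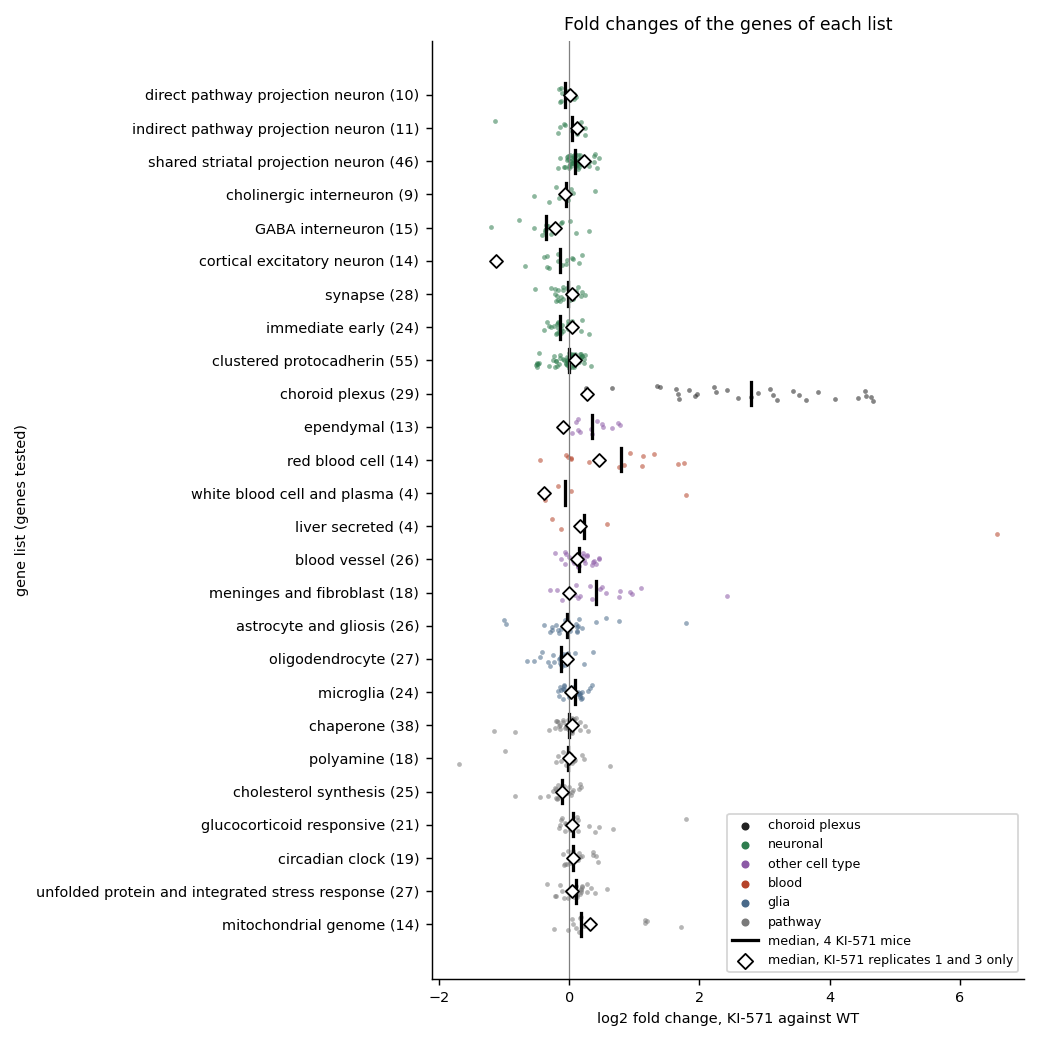
Log2 fold change of KI-571 against WT mice (x axis) for each tested gene of each list (rows, with the number of genes). Each dot is a gene, colored by class, the bar is the median with all 4 KI-571 mice and the diamond the median with KI-571 replicates 1 and 3 only; the choroid plexus median moves from 2.79 to 0.28 that of the cortical list from -0.14 to -1.13 and that of all neuronal lists from -0.01 to 0.072.

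Outside the choroid plexus and blood, some single genes rose in all 4 KI-571 mice. Aldh2, the mitochondrial aldehyde dehydrogenase (ENSMUSG00000029455.14; chromosome 5, 121566027 to 121593824), was at 132, 160, 125 and 145 CPM in KI-571 mice and at 91.1 to 107 CPM in WT mice (median 97.6). All KI-571 mice lay above all WT mice, 0.52 higher on the log2 scale (standard error 0.079, adjusted p = 0.0225). Ornithine decarboxylase Odc1, the enzyme that starts polyamine synthesis (ENSMUSG00000011179.8; chromosome 12, 17544794 to 17551505), was at 72.9, 75.0, 71.8 and 77.9 CPM in KI-571 mice and at 36.5 to 56.7 CPM in WT mice (median 49.8). The KI-571 mice were within a narrow range, above all WT mice, 0.62 higher on the log2 scale (standard error 0.10, adjusted p = 0.0313).

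The other polyamine genes did not pass. Of 18 tested, 8 were higher and 10 lower. Oaz1, which encodes the antizyme that limits ornithine decarboxylase, had a log2 fold change of 0.23 (adjusted p = 0.370), and Azin1, the inhibitor of antizyme, had -0.18 (adjusted p = 0.388).

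The lysosomal protease gene Ctsz was at 72.7, 64.9, 61.4 and 62.4 CPM in KI-571 and at 43.3 to 52.0 CPM in WT mice (log2 fold change 0.45, standard error 0.078, adjusted p = 0.0373). Gas5, a noncoding host of small nucleolar RNAs, was at 91.9 to 108 CPM in KI-571 and at 58.6 to 82.9 CPM in WT mice (log2 fold change 0.52, standard error 0.090, adjusted p = 0.0373). Neither overlapped between the groups. With KI-571 replicates 1 and 3 only, the log2 fold changes of Aldh2, Odc1, Ctsz and Gas5 were 0.40, 0.59, 0.49 and 0.59, and their adjusted p-values 0.110 to 0.128.

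Further genes that rose in all 4 mice, named after their values were seen, were the giant scaffold protein gene Ahnak (0.84, adjusted p = 0.0386), the laminin subunit Lamb1 (0.45, adjusted p = 0.0421), the short-chain dehydrogenase Dhrs7 (0.47, adjusted p = 0.0386) and Klhl34 (0.57, adjusted p = 0.0421). Ifit3, an interferon-induced gene (ENSMUSG00000074896.3), was at 8.01, 9.26, 10.1 and 10.7 CPM in KI-571 and at 4.16 to 7.08 CPM in WT mice (log2 fold change 0.84, standard error 0.17, adjusted p = 0.0489). It was evenly raised over the KI-571 mice.

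Of the 16 genes that fell, 15 did not overlap between the groups, where 0.692% of all tested genes were lower without overlap. These genes were chosen by their p on the same mice, so that the lack of overlap only describes them. Besides Htt, the protein-coding genes among those with the smallest p were Greb1, Parm1, Dpp10 and Magi1. Magi1, a scaffold protein of cell junctions, was at 56.7, 61.5, 61.3 and 57.0 CPM in KI-571 and at 71.0 to 96.8 CPM in WT mice (median 81.3; log2 fold change -0.49, standard error 0.096, adjusted p = 0.0448). Dpp10, an auxiliary subunit of voltage-gated potassium channels in neurons, was at 78.0, 66.6, 79.3 and 80.7 CPM in KI-571 and at 91.7 to 110 CPM in WT mice (log2 fold change -0.42, standard error 0.080, adjusted p = 0.0439). The highest KI-571 mouse thus stayed below the lowest WT mouse for both genes.

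Parm1, a membrane mucin gene, was at 31.4 to 36.4 CPM in KI-571 and at 42.9 to 54.4 CPM in WT mice (log2 fold change -0.46, adjusted p = 0.0421). At a mean of at least 1 CPM, the next protein-coding genes by p, which did not pass, were the zinc finger gene Gm15446 (log2 fold change -0.70, adjusted p = 0.0527), the transporter Slc45a3 (-1.01, adjusted p = 0.0603) and the inward rectifier potassium channel gene Kcnj16 (-0.70, adjusted p = 0.0603). All 3 were below the WT range in every KI-571 mouse.

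Of the choroid plexus genes, 10 rose, and their levels were high in KI-571 replicates 2 and 4. All 29 tested genes of the list had a positive log2 fold change, with a median of 2.79, and 10 passed the adjusted threshold, where 0.218% of all tested genes passed in this direction. Folr1, the folate receptor of the plexus, was at 3.93, 42.0, 1.75 and 35.2 CPM in KI-571 replicates 1 to 4 and at 0.812 to 3.78 CPM in WT mice (log2 fold change 3.63, standard error 0.67, adjusted p = 0.0386). Kl, which encodes klotho, was at 17.7, 114, 5.09 and 182 CPM in KI-571 and at 5.10 to 18.8 CPM in WT mice (log2 fold change 3.19, standard error 0.63, adjusted p = 0.0491). For both genes replicates 2 and 4 were far above the WT mice, and replicate 3 was within or at the edge of their range.

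The bicarbonate transporter Slc4a5 and the membrane protein gene Tmem72 had the smallest p of the list. Slc4a5 was at 4.13, 35.2, 0.821 and 40.8 CPM in KI-571 and at 0.206 to 1.89 CPM in WT mice (log2 fold change 4.64, adjusted p = 0.0282), and Tmem72 at 5.19, 55.4, 1.04 and 67.8 CPM in KI-571 and at 0.839 to 2.81 CPM in WT mice (4.55, adjusted p = 0.0282). Ttr, the thyroid hormone carrier that the plexus makes in large amounts, was at 140, 4861, 18.4 and 5037 CPM in KI-571 and at 20.1 to 347 CPM in WT mice (log2 fold change 4.66, standard error 1.09, adjusted p = 0.0844). Among WT mice the highest Ttr was in replicate 2. In KI-FL mice of the same series, which express full-length mutant HTT, Ttr ranged up to 2783 CPM, so that a high level in a mouse also occurred there.

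In all 29 genes KI-571 replicates 2 and 4 were both above every other mouse. KI-571 replicate 1 was above every WT mouse in 13 of the 29 and within the WT range in 15, and replicate 3 was within the WT range in 18 and below it in 9. The 14 genes that rose and for which replicates 2 and 4 were each over 2 times as high as replicates 1 and 3 comprised the 10 called genes of the list, namely Slc4a5, Tmem72, Aqp1, Folr1, Steap1, Wdr86, Rdh5, Cldn2, Col8a1 and Kl, and also Mfrp, Pcolce, 2900040C04Rik and 1500015O10Rik. How far the plexus level of these mice bears on other called genes was not tested beyond the fits without them or with that level as a covariate. 1500015O10Rik is an older name of Ecrg4, which is on the list but was not matched by its name there. With KI-571 replicates 1 and 3 only, the median of the list was 0.28, 24 of 29 genes had a positive log2 fold change, 0 passed the adjusted threshold and 2 had an unadjusted p-value under 0.05. In that fit, chosen after the data were seen, 3 genes of all 18726 tested (0.016%) passed, Alb, Gm7993 and Gm10222, and before adjustment 14.4% of all genes had a p under 0.05.

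**Figure D3:**
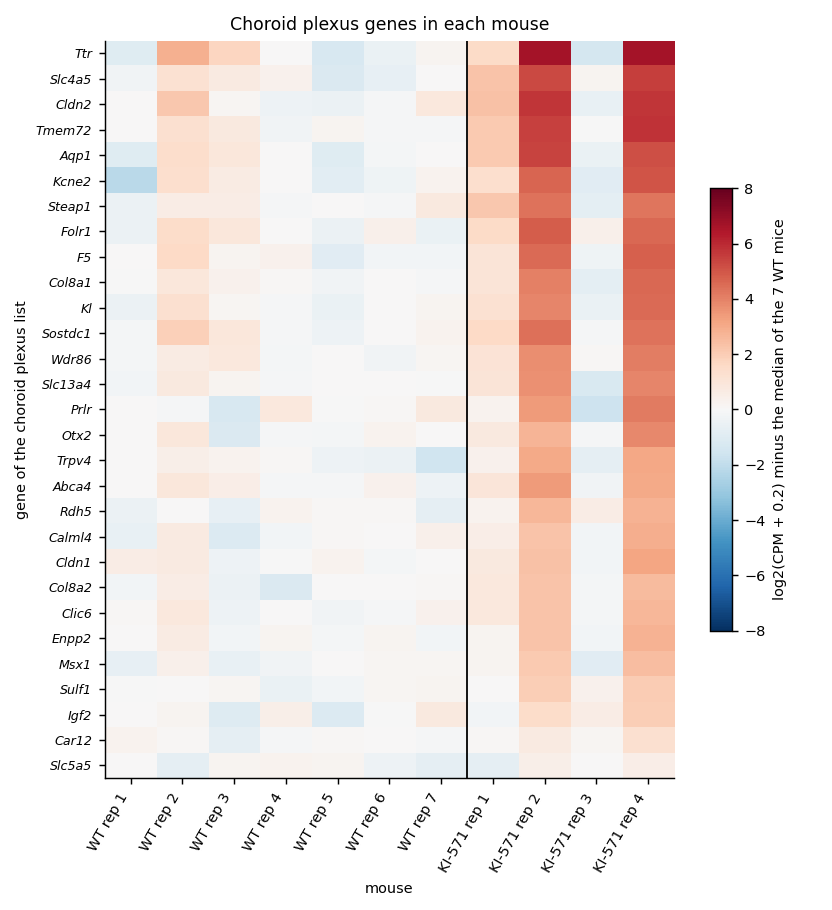
Level of the 29 tested choroid plexus genes (rows) in each of the 11 mice (columns), as log2(CPM + 0.2) minus the median of the 7 WT mice; red is above and blue below that median. KI-571 replicates 2 and 4 are above every other mouse in all 29 rows, WT replicate 2 is the highest WT mouse in 21 of 29 genes, and KI-571 replicate 3 is close to the WT mice.

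No ependymal, meningeal or vessel gene passed by edgeR. Of these lists 1, 7 and 4 genes (7.69%, 38.9% and 15.4%) had an unadjusted p under 0.05, against 12.2% of all genes. DESeq2 called 0, 1 and 1 of them, and 2.03% of all genes. All 13 tested ependymal genes had a positive log2 fold change (median 0.36), and 0 passed the adjusted threshold. Of 18 meningeal and fibroblast genes 15 were higher (median 0.41), and 0 passed. The growth factor binding protein gene Igfbp2, which leptomeningeal and plexus cells express, had the smallest p of that list, at 3.94 to 105 CPM in KI-571 and 4.67 to 19.5 CPM in WT mice (log2 fold change 2.42, adjusted p = 0.103). With KI-571 replicates 1 and 3 only, the medians of the ependymal and meningeal lists were -0.10 and -0.001. Of 26 blood vessel genes 21 were higher (median 0.15), led by Bsg, a surface protein gene (log2 fold change 0.46, adjusted p = 0.0985). With WT replicates 1 to 4 as controls, 13 of the 26 were higher, with a median of 0.00069.

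Of the red blood cell genes, 4 were higher in all 4 KI-571 mice than in all WT mice, against 0.916% of all tested genes, and 3 of these passed. Before adjustment, the edgeR p was under 0.05 for 8 genes of the list in the higher direction and 1 in the lower, where 6.04% and 6.16% of all genes had such a p. The list had 14 of its genes tested, of which 11 were higher and 3 lower, with a median of 0.80, and 3 passed, where 0.218% of all tested genes passed in this direction. Alas2, the enzyme that starts heme synthesis in red cells (ENSMUSG00000025270.13; chromosome X, 150547375 to 150570638), was at 8.78, 20.6, 8.05 and 6.34 CPM in KI-571 and at 2.13 to 3.98 CPM in WT mice (median 3.33; log2 fold change 1.76, standard error 0.27, adjusted p = 0.0248). The adult beta-globin gene Hbb-bt was at 12.9, 51.1, 22.4 and 17.5 CPM in KI-571 and at 4.62 to 10.5 CPM in WT mice (median 8.04; log2 fold change 1.67, standard error 0.30, adjusted p = 0.0373). All 4 KI-571 mice lay above all WT mice for both genes, replicate 2 highest.

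Ube2l6, which conjugates the ubiquitin-like protein ISG15 and is also abundant in red cell precursors, was the third, at 3.30, 7.45, 4.93 and 4.16 CPM in KI-571 and 1.78 to 2.96 CPM in WT mice (log2 fold change 1.13, standard error 0.22, adjusted p = 0.0466). The other globin genes were raised less evenly and did not pass: Hba-a1 was at 61.1 to 150 CPM in KI-571 and 28.4 to 78.5 CPM in WT mice (log2 fold change 0.76, adjusted p = 0.257), and Hbb-bs at 74.9 to 243 CPM against 40.8 to 120 CPM (0.84, adjusted p = 0.286). Globin genes have near-identical copies, and reads without a unique alignment were counted in a summary row and not on genes, so that their values are uncertain. With KI-571 replicates 1 and 3 only, the median of the red blood cell list was 0.45, and Alas2 and Hbb-bt had log2 fold changes of 1.40 and 1.13 with adjusted p-values of 0.0780 and 0.127.

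The mean log2 CPM of the 14 red blood cell genes was 4.72, 5.57, 4.97 and 4.80 in KI-571 replicates 1 to 4 and 4.13 to 4.58 in WT mice, whereas that of the 29 choroid plexus genes was 2.59, 5.11, 1.22 and 5.40 in KI-571 and 1.24 to 2.49 in WT mice. The mean log2 CPM of the red blood cell genes was thus above all WT mice in all 4 KI-571 mice, including replicate 3, whose choroid plexus level was at the lower edge of the WT mice. By summed CPM, in which the most abundant genes of the list weigh most, KI-571 replicate 4 was at 948.1 CPM, within the WT range of 885 to 998 CPM, and replicates 1 to 3 were above it. With the choroid plexus level of each mouse as a covariate, a level computed from these same genes, 1 of the 29 choroid plexus genes and 4 of the 14 red blood cell genes had an unadjusted p under 0.05 in the higher direction, where 4.75% of all genes did and 10.7% in either direction. In that fit 3 genes (0.0168%) were called, Alb, Gm7993 and Gm10222. With the red blood cell level as a covariate, also computed from the list's own genes, 16 of the 29 choroid plexus genes and 1 of the 14 red blood cell genes had such a p, where 3.95% of all genes did and 7.67% in either direction, and 2 genes (0.0112%) were called. As this level was above all WT mice in all 4 KI-571 mice, that fit can hardly tell it apart from genotype. Of 4 tested genes of white blood cells and plasma, 0 passed, and the smallest p belonged to Lcn2 (log2 fold change 1.79, adjusted p = 0.406), at 6.12 CPM in its highest KI-571 mouse and at 0.0773 to 1.31 CPM in WT mice.

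**Figure D4:**
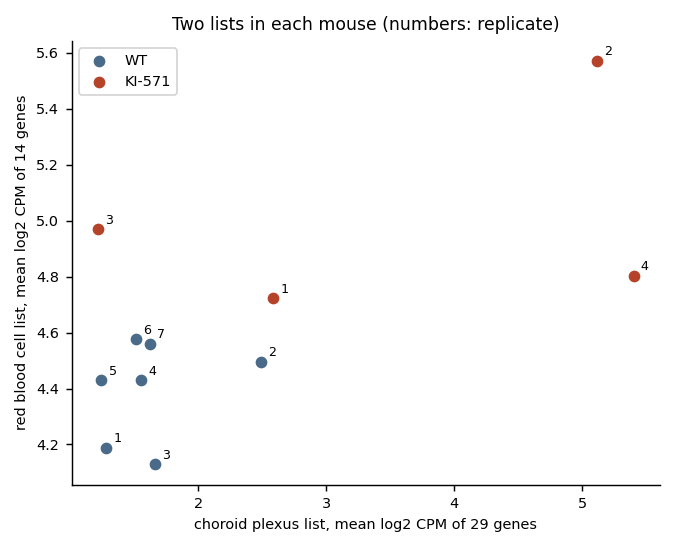
Mean log2 CPM of the choroid plexus list (x axis, 29 genes) and of the red blood cell list (y axis, 14 genes), with a point for each mouse and its replicate number. KI-571 replicates 2 and 4 lie far to the right at 5.11 and 5.40, while all 4 KI-571 mice lie above the WT mice on the y axis, at 4.72 to 5.57 against 4.13 to 4.58.

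The promoters of Alas2, Hbb-bt and Ifit3 are shown for red cell genes and for an interferon-induced gene that did not overlap between the groups. They are from RefSeq on GRCm38.p6, run from 250 bases before to 50 bases after the annotated start, and are written on the strand of the gene. Alas2 is at chrX:150547167-150547466 (plus strand), Hbb-bt at chr7:103813874-103814173 (minus strand) and Ifit3 at chr19:34583279-34583578 (plus strand). In Alas2 and Hbb-bt, capitals mark AGATAA, the core bound by GATA factors of red cell precursors, and CACCC, the box of globin promoters, and in Ifit3 they mark TTTC followed by any 2 bases and TTTC, the core of the interferon-stimulated response element. Each was searched on both strands.
Alas2: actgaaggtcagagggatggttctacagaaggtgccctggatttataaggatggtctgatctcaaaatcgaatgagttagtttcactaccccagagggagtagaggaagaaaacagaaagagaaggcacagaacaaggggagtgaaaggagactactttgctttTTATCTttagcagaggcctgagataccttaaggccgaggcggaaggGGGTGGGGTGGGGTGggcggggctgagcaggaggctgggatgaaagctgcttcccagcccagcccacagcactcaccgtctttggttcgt
Hbb-bt: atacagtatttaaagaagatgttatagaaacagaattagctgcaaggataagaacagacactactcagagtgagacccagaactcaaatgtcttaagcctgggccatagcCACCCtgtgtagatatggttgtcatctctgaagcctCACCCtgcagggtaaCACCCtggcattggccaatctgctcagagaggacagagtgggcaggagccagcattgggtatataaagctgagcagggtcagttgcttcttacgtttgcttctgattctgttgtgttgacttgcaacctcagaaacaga
Ifit3: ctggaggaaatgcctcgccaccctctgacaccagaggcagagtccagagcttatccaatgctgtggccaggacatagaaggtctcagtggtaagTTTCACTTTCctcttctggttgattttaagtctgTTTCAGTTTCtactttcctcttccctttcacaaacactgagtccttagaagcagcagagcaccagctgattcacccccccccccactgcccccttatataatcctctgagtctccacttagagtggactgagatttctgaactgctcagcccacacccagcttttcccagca
Alas2 held 1 match of AGATAA, as TTATCT on its strand, and 3 of CACCC, as GGGTG, and Hbb-bt held 3 of CACCC. Ifit3 held 2 of its motif. Of the 32851 promoters of the table, 11.2% held AGATAA, 57.5% CACCC and 3.44% the interferon-stimulated response core, so that CACCC in particular is common. A match describes the sequence and is not a measured binding site.

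Alb, which encodes the serum albumin of the liver, had the smallest p of all genes. It had 36, 44, 79 and 113 counts in KI-571 replicates 1 to 4 and 0 to 2 counts in WT mice, and against a WT group set at the floor of 3 counts per library it was at least 25.6-fold higher (adjusted p = 5.0e-05 by edgeR). The other 3 tested genes of secreted liver proteins, Hp, Ttpa and Trf, did not pass, with log2 fold changes of 0.59, -0.26 and -0.12. Alb also reached 19.3 CPM in the KI-96 mice of the series and 7.36 CPM in the KI-FL mice, so that its rise was not limited to KI-571 mice.

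Glial genes did not pass by edgeR. Of 27 oligodendrocyte genes 24 were lower, with a median of -0.12. The smallest p belonged to Ugt8a, an enzyme of myelin lipid synthesis, at 59.4 to 87.4 CPM in KI-571 and 70.2 to 134 CPM in WT mice (log2 fold change -0.65, standard error 0.16, adjusted p = 0.107), followed by Aspa (-0.54, adjusted p = 0.126) and the lineage transcription factor Olig2 (-0.46, adjusted p = 0.154). DESeq2 called 3 of the 27, and 2.03% of all genes. With KI-571 replicates 1 and 3 only, 20 of the 27 were lower, with a median of -0.04.

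Of 26 astrocyte and gliosis genes 12 were higher and 14 lower (median -0.03). Gfap, the intermediate filament gene that rises in gliosis, was -0.15 on the log2 scale (standard error 0.19, adjusted p = 0.794), and Ntsr2, an astrocyte receptor, had the smallest p (-0.39, adjusted p = 0.242). Of 24 microglial genes 14 were higher (median 0.084), led by the lysosomal membrane gene Laptm5 (0.35, adjusted p = 0.173).

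Among the other pathways, 0 of 38 chaperone genes passed, with 19 higher and 19 lower (median 0.003). Hspbp1, a cochaperone gene, was 0.048 on the log2 scale (standard error 0.11, adjusted p = 0.894), and Hspa4l had the smallest p (-0.31, adjusted p = 0.225). Of 25 cholesterol synthesis genes 17 were lower (median -0.12), among them Fdps (-0.83, adjusted p = 0.339). Of 27 genes of the unfolded protein and integrated stress response 18 were higher (median 0.11), with the smallest p for the cystine transporter Slc7a11 (-0.34, adjusted p = 0.337). Of 21 glucocorticoid responsive genes 13 were higher, led by Fkbp5 (0.39, adjusted p = 0.242), and of 19 clock genes 13 were higher, led by Tef (0.41, adjusted p = 0.210).

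Among the ribosomal protein genes 2 rose, Rpl3 and Rpl32. The ribosomal protein gene Rpl3 (ENSMUSG00000060036.14; chromosome 15) was at 858, 510, 532 and 502 CPM in KI-571 and at 226 to 361 CPM in WT mice (log2 fold change 1.07, standard error 0.17, adjusted p = 0.0267), with no overlap. Its processed pseudogene Rpl3-ps1 on the X chromosome was at 6.55, 3.73, 4.33 and 2.08 CPM in KI-571 and at 11.6 to 25.9 CPM in WT mice, a fall of 2.21 on the log2 scale (adjusted p = 0.0131). The gene and its copy thus moved in opposite directions, and as reads can be shared between them both values are uncertain.

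Over the 82 cytosolic ribosomal protein genes, a family chosen after its values were seen, 68 were higher and 14 lower, with a median of 0.17. Of these 30 had an unadjusted p-value under 0.05 in the higher direction, where 6.04% of all genes did, and 0 in the lower. Rpl32 passed at 0.46 (adjusted p = 0.0475). The summed level of the family was 20202, 15094, 15486 and 16306 CPM in KI-571 replicates 1 to 4 and 13877 to 16014 CPM in WT mice, so that replicate 1 was far above the WT range and replicates 2 and 3 were within it. The median log2 fold change was 0.18 with DESeq2's size factors, 0.19 with WT replicates 1 to 4 as controls and 0.24 with KI-571 replicates 1 and 3 only.

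Some pseudogenes and noncoding genes fell far. The processed pseudogene Gm7993 (chromosome 5) had 0, 6, 2 and 5 counts in KI-571 mice and was at 6.27 to 14.8 CPM in WT mice (log2 fold change -5.77, standard error 0.51, adjusted p = 8.26e-05). Gm4425, a noncoding gene of chromosome 12, had 0 counts in all 4 KI-571 mice and 7 to 25 counts in WT mice, at least 4.61-fold lower when the KI-571 libraries are set at the floor of 3 counts. Oaz2-ps fell by 2.08 on the log2 scale (adjusted p = 0.0131), and its parent Oaz2 had a log2 fold change of -0.07. Catspere1, at 0 to 2 counts in KI-571 mice, was at 3.83 to 10.1 CPM in 6 WT mice but at 0.0583 CPM in WT replicate 1, so that the groups overlapped (adjusted p = 0.0248). It was at 0 CPM in all 4 KI-96 mice of the series. Of the called genes 12.7% were pseudogenes, against 2.81% of those tested.

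Genes of the mitochondrial genome were higher in 12 of 14 cases (median 0.18). The mean log2 CPM of the list was 9.63, 8.99, 8.84 and 8.73 in KI-571 replicates 1 to 4 and 8.20 to 8.998 in WT mice, so that replicate 1 alone lay above the WT range. The unadjusted p-value was under 0.05 in the higher direction for 4 of the 14, where 6.04% of all genes did, led by mt-Atp6, at 11.3 to 32.6 CPM in KI-571 and 5.98 to 17.8 CPM in WT mice (log2 fold change 1.17, standard error 0.28, adjusted p = 0.0925). Gm10222, an unprocessed pseudogene on chromosome 1 that overlaps with Gm28439, was at 1.42 to 4.999 CPM in KI-571 and at 0.524 to 1.08 CPM in WT mice (2.18, standard error 0.30, adjusted p = 0.0131). Its neighbors Gm28437, Gm10925 and Gm29216, copies of mitochondrial sequence named after their values were seen, had log2 fold changes of 0.99, 1.04 and 1.15. Reads of these copies and of the mitochondrial genes can be shared, and their values are uncertain.

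The neighborhood of Htt was looked at because the edited allele descends from 1 founder. Of 203 tested genes that start within 10 Mb of Htt, 1 passed, Htt itself, and 29 had an unadjusted p-value under 0.05, 14.3% against 12.2% of all genes. The median absolute log2 fold change was 0.14, as over all genes (0.14). The gene next in p was Grk4, a receptor kinase 0.101 Mb before Htt, with a log2 fold change of 0.69 (standard error 0.18, unadjusted p = 0.00159 by edgeR, chosen after its values were seen), higher in all 4 KI-571 mice than in all WT mice.

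On chromosome 5 as a whole, 9 of 1206 tested genes passed, Htt among them, 0.746% against 0.307% of all genes. Among the 9 were Pcolce, Steap1, Wdr86 and Kl, for which KI-571 replicates 2 and 4 were each over 2 times as high as replicates 1 and 3. Also among the 9, Alb, Parm1 and Gm7993 start at 90460897, 91517615 and 95974240, a stretch looked at after its values were seen. Called genes were also dense in a region of chromosome 12 chosen after its values were seen. Of 703 tested genes of this chromosome 8 passed, 1.14% against 0.307% of all genes, and 7 of them lie between Greb1 and Lamb1 (16670615 to 31329644), where 71 genes were tested. In this stretch the unadjusted p was under 0.05 for 28 genes, 39.4% of those tested, 11 higher and 17 lower. Odc1, Gm19196, Gm9866 and Lamb1 rose and Greb1, Gm49329 and Gm4425 fell. Greb1, an estrogen-induced gene, was at 0.291, 0.601, 0.383 and 0.820 CPM in KI-571 and at 1.28 to 2.99 CPM in WT mice (log2 fold change -1.87, standard error 0.34, adjusted p = 0.0386), and Gm19196 at 4.60 to 7.18 CPM in KI-571 and 0.850 to 2.69 CPM in WT mice (1.58, adjusted p = 0.0373). None of the 7, which were chosen by their p on the same mice, overlapped between the groups.

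**Figure D5:**
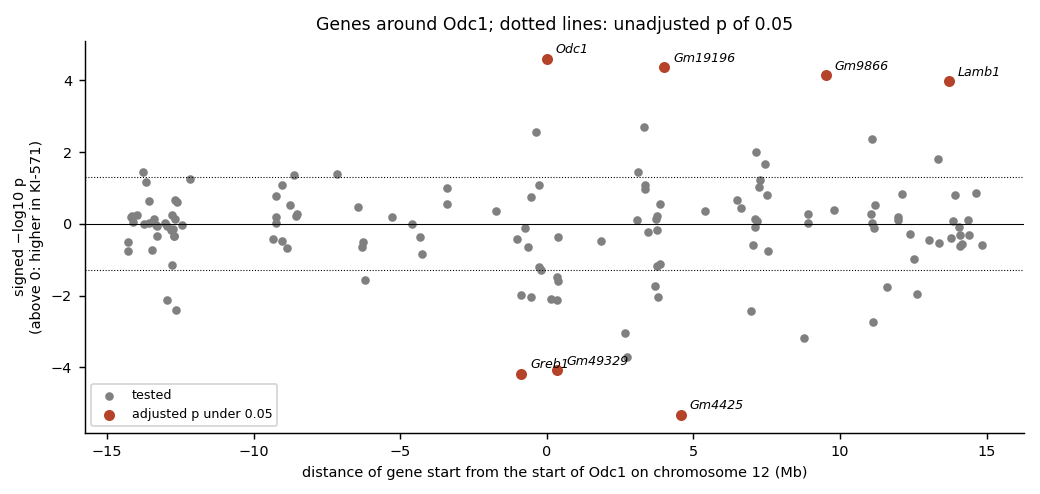
Genes of chromosome 12 that start within 15 Mb of Odc1, by distance of their start (x axis, Mb) and by −log10 of the unadjusted p with the sign of the log2 fold change (y axis). Red points are the 7 genes at an adjusted p under 0.05, which rose (above 0) or fell (below 0), and all 7 lie from Greb1 just before Odc1 to the right.

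A stretch of chromosome 15 from Slc39a4 to Rpl3 (76612383 to 80091868), also chosen after its values were seen, held 4 called genes of 95 tested, where 0.307% of all genes were called. The unadjusted p was under 0.05 for 22.1% of the 95, against 12.2% of all genes. The zinc transporter Slc39a4 was at 1.99, 4.99, 2.85 and 6.07 CPM in KI-571 and at 0.157 to 1.28 CPM in WT mice (log2 fold change 2.13, standard error 0.38, adjusted p = 0.0383). The antisense genes A730060N03Rik and Gm41361 fell by 1.27 and 2.05 on the log2 scale (adjusted p = 0.0373 for both). On the opposite strand they overlap with an end of Cacng2 and of Pdgfb, and most of the span of each antisense gene lies outside its partner. Cacng2 and Pdgfb had log2 fold changes of -0.09 and 0.22. The strand setting of the counting is not given in the sources used here, so that where a gene and its antisense partner overlap, their reads cannot be told apart. Gm5089, antisense to Clybl on chromosome 14 and mostly within its span, rose (0.89, adjusted p = 0.0373) with the same limit.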

How the data were processed

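Striatal RNA of 4 KI-571 and 7 WT mice was sequenced, with genotype and replicate number taken from the labels. The values the authors deposited are raw counts of reads for each gene with no normalization. Per the study's methods, adapters were trimmed with BBduk, reads were aligned to GRCm38 with STAR, and genes were counted with HTSeq. Versions and the strand setting are not given in the sources used here. The 5 summary rows were left out, and 4 columns that match none of the labelled samples were not used. Of 54232 gene identifiers 54165 were matched to GENCODE mouse release M21, which is on the same build.

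Counts were filtered with filterByExpr (minimum count 10, minimum total 15), normalized by TMM and tested by the quasi-likelihood F-test of edgeR 4.0.16 in R 4.3.3 on the 11 mice, with genotype as the only term, Benjamini-Hochberg adjustment over all 17908 tested genes and a threshold of 0.05. The study fitted sacrifice batch in DESeq2 and removed a WT mouse. The labels name neither, so that all 7 WT mice were kept and no batch was fitted. The biological coefficient of variation was 0.193. Log2 CPM used a prior count of 2. Mice of a group differed by more than sampling noise. The procedure was also run on simulated counts, in which genes were independent and shared the same spread. These counts held no choroid plexus, blood or batch differences between mice, and their outcome is not used here. Genotypes share replicate numbers, and the labels do not say whether these stand for pairs.

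The gene lists and the members named were chosen with earlier results of these data known, and lists are described by counts and medians without a test. Named genes were Htt, the 20 called genes with the smallest p, the 8 protein-coding genes with the smallest p in each direction at a mean of at least 1 CPM, the gene with the smallest p of each list, and fixed markers of projection neurons, choroid plexus, red blood cells and glia; any other gene was picked with its values known. Alternatives were DESeq2 1.42.0, its size factors in edgeR, other filters on low counts, all 19 mice in the fit, Xist, choroid plexus or red blood cell level as a covariate, 1 surrogate variable from sva 3.50.0, WT replicates 1 to 4 or 5 to 7 as controls, a replicate block, an adjusted threshold of 0.1 and each mouse left out. The fit with KI-571 replicates 1 and 3 only was added after the data were seen. Some genes are not reported here.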

Additional observations from a re-analysis of the deposited data

Results flagged for a closer look

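Within a genotype, 192 groups of values (named genes and list levels on the log2 CPM scale) were examined for a mouse far from the others, and 14 were found, where chance at 1 in 20 gives about 10. The following are values only.

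WT replicate 1 stood apart for sex-linked genes. It had Xist at 10.07 against -1.44 to 1.64 in the other WT mice, the X-inactivation list, which is Xist alone, at the same 10.07, the Y-linked gene Kdm5d at -3.345 against 5.28 to 5.65, and the Y-linked list at -3.345 against 5.16 to 5.55. The same mouse had Catspere1 at -2.674 against 1.97 to 3.34.

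WT replicate 3 had the cortical excitatory neuron list at 5.495 against 2.03 to 3.19 in the other WT mice, Ugt8a at 6.135 against 6.72 to 7.06, Pdyn at 6.146 against 6.97 to 7.58 and Gfap at 6.52 against 7.38 to 7.90. WT replicate 2 had the choroid plexus list at 2.494 against 1.24 to 1.66, Cartpt at 0.8273 against 2.05 to 2.74 and Fkbp5 at 5.953 against 5.30 to 5.57. KI-571 replicate 1 had Rpl3 at 9.744 against 8.97 to 9.06 in the other KI-571 mice and Ntsr2 at 6.388 against 6.98 to 7.04.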

How the results depend on the processing

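Counts of called genes depended on the processing, while the direction of the 55 called genes was kept where tested, except for 2 genes with choroid plexus level as a covariate. In place of 55 genes, DESeq2 called 335, no filter on low counts 199, all 19 mice in the fit 6, Xist as a covariate 19, WT replicates 1 to 4 as controls 8, WT replicates 5 to 7 as controls 95, choroid plexus level as a covariate 3, red blood cell level as a covariate 2, an adjusted threshold of 0.1 169, and KI-571 replicates 1 and 3 only, an alternative chosen after seeing the data, 3. The fit of all 19 mice includes KI-FL replicate 4, which had 16384 genes detected against 23177 to 28700 in the other mice. The part of this library in that fit was not tested. Leaving out 1 mouse gave 2 to 143 genes: 103, 2, 143 and 92 without KI-571 replicates 1 to 4, 33 and 90 without WT replicates 1 and 2, and 10, 8, 11 and 7 without WT replicates 4 to 7. Genes with an unadjusted p under 0.05 numbered 3635 with no filter, 1430 with all 19 mice, 1184 with WT replicates 1 to 4 and 1373 with the red blood cell covariate in place of 2186, and 1718 to 2919 without 1 mouse.

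With the replicate number as a replicate block, over replicates 1 to 4, 7 genes were called, 1173 had an unadjusted p under 0.05 and Htt was at -0.57 (adjusted p = 0.172 by edgeR). Deviations of same-numbered mice correlated at 0.139, 0.0112, -0.0909 and 0.0334, and only KI-571 replicate 1 correlated best with the WT mouse of its own number. The labels do not say whether the numbers pair the mice, and these correlations cannot settle it.

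The log2 fold change of Htt lost its call with all 19 mice (-0.53), WT replicates 1 to 4 (-0.56) or 5 to 7 (-0.47), the choroid plexus (-0.42) or red blood cell covariate (-0.46) and KI-571 replicates 1 and 3 only (-0.42), at adjusted p-values of 0.0798 to 0.617 by edgeR, and it ranged from -0.60 to -0.46 without 1 mouse. The choroid plexus median was -0.0211 with its own level as a covariate and 0.28 with KI-571 replicates 1 and 3 only, and 1.98 to 3.19 without 1 mouse. The red blood cell median was 0.43 with WT replicates 5 to 7, 0.44 with the choroid plexus covariate, -0.0182 with its own, 0.45 with KI-571 replicates 1 and 3 only and 0.43 to 0.95 without 1 mouse, lowest without KI-571 replicate 2. The median of the neuronal lists was 0.11 with WT replicates 5 to 7. Near Htt, 15 genes in place of 29 had an unadjusted p under 0.05 with all 19 mice and 19 within 5 Mb. The red blood cell level was above all WT mice in all 4 KI-571 mice, so that fits with this covariate can hardly tell it apart from genotype. The causes of these changes were not tested.

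Over 64 named genes, 1184 of 1516 alternative values kept direction and side of the threshold, 271 lost and 28 gained the call, and 33 changed sign. With the red blood cell covariate these were Mef2c (0.147), Fosb (-0.0848), Kdm5d (-0.183), Xist (7.14), Drd1 (0.0661), Hba-a1 (-0.446), Hbb-bs (-0.490) and Hspbp1 (-0.0707). With the choroid plexus covariate they were Lcn2 (-0.121), Igfbp2 (-0.553), Tac1 (-0.0307), Ttr (-1.20) and Kl (-0.162). With WT replicates 5 to 7 they were Mef2c (0.0584), Fosb (-0.0005), Kdm5d (-0.0114) and Xist (1.68), and with WT replicates 1 to 4 Pdyn (0.0489) and Ppp1r1b (-0.0511). With the block they were Pdyn (0.0852) and Ppp1r1b (-0.0482), and with KI-571 replicates 1 and 3 only Igfbp2 (-0.0332), Drd1 (0.0035), Pdyn (0.0245) and Ttr (-0.327). Xist was at 1.05 with DESeq2 and 0.0651 with itself as a covariate. Without 1 mouse, Fosb ranged from -0.0002 (without KI-571 replicate 3) to 0.496, Hspbp1 from -0.0266 (without KI-571 replicate 3, and -0.0088 without replicate 2) to 0.122, Lcn2 from -0.364 (without KI-571 replicate 4) to 2.19, Kdm5d from -0.0173 (without WT replicate 1) to 0.274 and Xist from -6.89 to 1.13 (without WT replicate 1).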
